A study of Homo sapiens with 4 samples.

Results

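The set described here is 10 genes of chromosome band 11q22 that lie from YAP1 to DCUN1D5. The lower map coordinates of these 2 genes are 951.6 kb apart in GRCh38. In map order the 10 genes are YAP1, BIRC3, BIRC2, TMEM123, MMP7, MMP10, MMP1, MMP3, MMP13 and DCUN1D5. They were chosen by name from the band around YAP1 and selected on the log2 fold changes of these same libraries, in which YAP1 was lower under TINCR-HA-FLAG. They are 10 of the 60649 gene rows of the count table. Of the 10, 9 passed the filter on low counts and are among the 18771 genes tested, and MMP3 did not. RNA was sequenced from FaDu cells, a human head and neck squamous carcinoma cell line, that carried either an empty vector or a construct overexpressing TINCR with HA and FLAG tags, and all were grown in alpha MEM with fetal bovine serum. There were 2 empty vector libraries and 2 TINCR-HA-FLAG libraries, and the series calls them technical replicates, so p-values measure only the spread between libraries, which may be technical.

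Band 11q22 holds genes of unlike function side by side. YAP1 is the coactivator through which the Hippo kinases control growth: when the kinases are inactive it enters the nucleus and binds TEAD transcription factors. BIRC2 and BIRC3 encode the ubiquitin ligases cIAP1 and cIAP2, which act at the tumour necrosis factor receptor and restrain the noncanonical NF-kB pathway. The matrix metalloproteinase genes that follow encode secreted enzymes that cut collagens and other matrix proteins, and many of them respond to AP-1 transcription factors in squamous cells. Gains of the band that include YAP1 and BIRC2 are known in some carcinomas.

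Of the 10 genes, 7 have an entry in the RefSeq promoter table of GRCh38.p14, and MMP1, MMP3 and MMP13 are the other 3. The 250 bases before the annotated start were searched on both strands for 5 motifs. These were the AP-1 site (TGANTCA) and the cyclic AMP response element, searched as TGACGTCA. The TEAD site was searched as GGAATG. The TATA box was searched as TATAAA, and the kappaB consensus by its usual definition. The 4 promoters below are shown because each holds such a match, and capitals mark the matches. Bases inside the GENCODE gene bounds were trimmed. The promoters are those of YAP1 (chr11:102110197-102110446, plus strand, TEAD), BIRC3 (chr11:102317234-102317449, plus strand, kappaB), MMP7 (chr11:102530754-102530997, minus strand, AP-1 and TATA) and MMP10 (chr11:102780629-102780878, minus strand, AP-1 and TATA).
YAP1: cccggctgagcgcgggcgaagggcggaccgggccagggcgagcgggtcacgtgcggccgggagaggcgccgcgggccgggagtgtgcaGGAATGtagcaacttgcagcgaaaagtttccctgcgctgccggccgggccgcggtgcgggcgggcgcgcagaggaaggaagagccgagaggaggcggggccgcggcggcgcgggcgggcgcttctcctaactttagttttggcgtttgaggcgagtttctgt
BIRC3: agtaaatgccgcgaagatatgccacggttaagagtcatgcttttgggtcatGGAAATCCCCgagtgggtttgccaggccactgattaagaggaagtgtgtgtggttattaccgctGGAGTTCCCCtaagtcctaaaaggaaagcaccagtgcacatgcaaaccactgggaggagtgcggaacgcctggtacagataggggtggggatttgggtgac
MMP7: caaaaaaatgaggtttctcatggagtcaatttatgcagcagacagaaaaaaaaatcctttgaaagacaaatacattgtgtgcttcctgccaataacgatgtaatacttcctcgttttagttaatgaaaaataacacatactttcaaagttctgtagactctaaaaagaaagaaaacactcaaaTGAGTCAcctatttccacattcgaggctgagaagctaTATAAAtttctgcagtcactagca
MMP10: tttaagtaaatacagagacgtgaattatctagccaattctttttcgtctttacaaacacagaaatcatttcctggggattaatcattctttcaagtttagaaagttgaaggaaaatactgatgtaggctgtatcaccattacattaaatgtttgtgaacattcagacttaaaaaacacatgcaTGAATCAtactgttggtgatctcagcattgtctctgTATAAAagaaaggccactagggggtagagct

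The 2 metalloproteinase promoters shared their layout. In both the AP-1 match lay 67 to 61 bases before the start, as TGAGTCA in MMP7 and TGAATCA in MMP10, and the TATA match began 30 bases before the start in MMP7 and 31 in MMP10. An AP-1 match was present in 6.57% of 35116 such windows, a TATA match in 10.7%, a kappaB match in 9.96% and a TEAD match in 11.9%. BIRC3 held 2 kappaB matches, GGAAATCCCC and GGAGTTCCCC, which fit the consensus when read on the opposite strand. The second of the annotated BIRC2 starts had a cyclic AMP response element, which 1.65% of windows hold. No match to these motifs was found before TMEM123, DCUN1D5 or the first BIRC2 start, which says only that these letters are not in those windows. The TMEM123 window (102452766 to 102453015) lies wholly inside the GENCODE bounds of that gene, so its values describe an annotated start within those bounds. Base composition set the metalloproteinases apart: GC content was 33.6% for MMP7 and 34.4% for MMP10, against 72.0% for YAP1, 71.2% for TMEM123, 67.6% and 73.2% for the BIRC2 starts, 60.4% for DCUN1D5 and 52.4% for BIRC3, with a median of 58.0% over all windows. A match describes the letters and is not evidence of a bound factor.

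Library totals ranged from 17069533 to 22331602 counts, so that 3 counts corresponded to 0.135 to 0.177 CPM, the unit of level used here, which divides each count by the TMM-scaled library total. TINCR itself, the check of the labels, had 3.97 and 3.78 CPM in empty vector libraries against 104.3 and 132.7 CPM under TINCR-HA-FLAG. All 10 squamous epithelial markers were tested, and their summed level was 8440 to 9636 CPM in empty vector libraries against 7251 to 8462 CPM under TINCR-HA-FLAG. Most of that sum was KRT5 (4457 ± 427 and 3575 ± 370 CPM) and KRT17 (2840 ± 324 and 2656 ± 494 CPM; SD, n = 2 per group). The log2 fold change was negative for 9 of the 10 markers (49.3% of all genes), and for 7 both TINCR-HA-FLAG libraries were lower (17.9% of all genes). The basal keratin gene KRT14 fell by 1.08 on the log2 scale (edgeR adjusted p = 0.014), and DESeq2 called KRT6A lower as well (adjusted p = 0.039). Over all genes tested, edgeR called 0.0959% lower and DESeq2 0.314%. Markers of fibroblasts summed to 42.3 to 46.4 against 51.04 to 51.3 CPM, of immune cells to 12.3 to 14.04 against 10.05 to 14.1 CPM and of endothelial cells to 10.9 to 11.2 against 13.6 to 14.3 CPM. Of the fibroblast, immune and endothelial markers 5 of 8, 3 of 7 and 2 of 6 were tested, and none was at 0 in all 4 libraries. Their part in the results was not tested.

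Levels within the band spanned a wide range. Per kilobase of annotated exon, TMEM123 had the highest level in the empty vector libraries, with 102.4 ± 6.56 CPM per kilobase (SD, n = 2), followed by MMP13 with 54.3 ± 5.86. YAP1 had 40.4 ± 2.13 and DCUN1D5 36.7 ± 2.10 CPM per kilobase, a pair whose SD ranges overlap. BIRC2 had 19.7 ± 0.62, MMP10 14.5 ± 1.90 and MMP1 10.5 ± 0.55 CPM per kilobase. MMP7 and BIRC3 had 2.74 ± 0.25 and 2.33 ± 0.12 CPM per kilobase, and MMP3 had 0.26 ± 0.04. In this order the 2 empty vector libraries of each gene lay above both of the next gene. With TINCR-HA-FLAG, DCUN1D5 (27.0 ± 1.11 CPM per kilobase) and YAP1 (24.95 ± 1.43) stood in the reverse order with overlapping SD ranges, and MMP10 (14.6 ± 1.25) stood beside BIRC2 (14.4 ± 0.37).

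**Figure D1:**
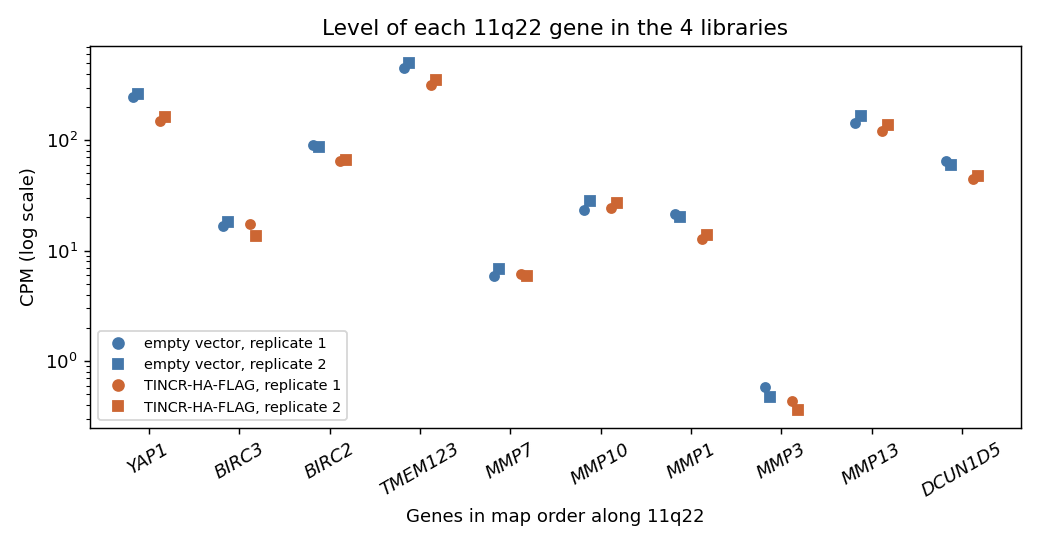
CPM on a log axis for each of the 10 genes in map order. Blue points are the 2 empty vector libraries and orange points the 2 TINCR-HA-FLAG libraries. The orange points of YAP1, BIRC2, TMEM123, MMP1, MMP13 and DCUN1D5 lie below the blue ones, and those of BIRC3, MMP7 and MMP10 overlap with them.

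The comparison asks how expression of these genes differs when tagged TINCR is overexpressed. YAP1 had 1 of the 18 lower calls among 18771 genes at an edgeR adjusted p under 0.05. It was the only 1 of the 9 tested genes to be called, beside 0.0959% of all genes called lower, 0.453% called higher and 0.549% in either direction. DESeq2 called 3 of the 9, all lower, beside 0.314% of all genes lower and 1.01% in either direction, and 5 of the 9 were lower at an unadjusted edgeR p under 0.05, beside 4.31%. In 6 of the 9 both TINCR-HA-FLAG libraries lay below both empty vector libraries, beside 17.9% of all genes (39.6% without overlap in either direction), and in 8 of the 9 the log2 fold change was negative, beside 49.3% of all genes. The median log2 fold change of the 9 was -0.44, against 0.004 for all genes tested. The genes were chosen with this contrast known, so these counts describe them and support nothing further. In such bulk RNA, fewer cells of a type and less RNA per cell cannot be told apart.

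YAP1 (ENSG00000137693.14, chromosome 11, 102110461 to 102233423, plus strand) had 245 and 264 CPM in empty vector libraries against 151 and 163 CPM under TINCR-HA-FLAG. The groups did not overlap, and each group's 2 libraries lay close together. The mean fell from 255 ± 13.4 to 157 ± 8.98 CPM (SD, n = 2 per group), to 61.7% of the empty vector level, or -0.70 as log2 fold change (SE 0.11, edgeR quasi-likelihood adjusted p = 0.025). DESeq2 gave -0.72 (adjusted p = 1.1e-05). The edgeR call was lost when empty vector replicate 2 was left out (log2 fold change -0.64) and when the low-count filter was dropped (-0.69, adjusted p = 0.059). With the other scalings and the other filter the edgeR adjusted p lay between 0.011 and 0.026. Over the libraries left out in turn the log2 fold change lay between -0.63 and -0.79.

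The 2 inhibitor of apoptosis genes, whose gene bounds are 7.8 kb apart, had different values. BIRC2 (102347211 to 102378670, plus strand) had 91.4 and 87.4 CPM in empty vector libraries against 64.2 and 66.6 CPM under TINCR-HA-FLAG. Both TINCR-HA-FLAG libraries were lower, with a log2 fold change of -0.45 (SE 0.10) and an edgeR adjusted p of 0.11, which did not pass, while DESeq2 called it at 0.049. BIRC3 (102317450 to 102339403, plus strand) had 16.9 and 18.1 CPM in empty vector libraries against 17.4 and 13.6 CPM under TINCR-HA-FLAG. The groups of BIRC3 overlapped, with a log2 fold change of -0.18 (SE 0.16, edgeR adjusted p = 0.79). It was -0.36 when TINCR-HA-FLAG replicate 1 was left out and -0.01 when replicate 2 of that group was. The count ratio of BIRC3 to BIRC2, which needs no scaling between libraries, was 0.185 and 0.207 in empty vector libraries against 0.271 and 0.204 under TINCR-HA-FLAG, so the groups overlapped in the ratio as well. The difference between the 2 genes' changes was not tested.

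TMEM123 (102396332 to 102470384, minus strand) encodes porimin, a transmembrane protein linked to a form of cell death without caspases. It had 454 and 497 CPM in empty vector libraries against 319 and 351 CPM under TINCR-HA-FLAG. Both TINCR-HA-FLAG libraries were lower, at 70.5% of the empty vector level by the fit (log2 fold change -0.50, SE 0.12, edgeR adjusted p = 0.12), and DESeq2 called it (adjusted p = 0.0054). Its count ratio to BIRC2, its neighbour at 17.7 kb, was 4.97 and 5.69 in empty vector libraries against 4.97 and 5.27 under TINCR-HA-FLAG, so the groups overlapped. The ratio of YAP1 to TMEM123 was 0.540 and 0.531 against 0.472 and 0.465, and that of YAP1 to BIRC2 was 2.68 and 3.02 against 2.35 and 2.45. In both of these ratios the TINCR-HA-FLAG libraries were lower without overlap. YAP1 had the lowest log2 fold change of the tested genes of the set, and these ratios restate that. They were chosen after the values were seen and were given no test.

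Among the metalloproteinase genes, the collagenase gene MMP1 (102789920 to 102798160, minus strand) had the largest negative value. MMP1 had 21.5 and 20.0 CPM in empty vector libraries against 12.7 and 14.0 CPM under TINCR-HA-FLAG. The groups did not overlap, with a log2 fold change of -0.64 (SE 0.14), and the edgeR adjusted p was 0.11. It passed without TINCR-HA-FLAG replicate 2 (log2 fold change -0.71, edgeR adjusted p = 0.038), while leaving out any other library gave 0.135 to 0.262 and DESeq2 gave 0.078. MMP13 (102942995 to 102955734, minus strand), the collagenase 3 gene and the most highly expressed metalloproteinase of the set, had 142 and 165.5 CPM in empty vector libraries against 122 and 137 CPM under TINCR-HA-FLAG. The lower empty vector library and the higher TINCR-HA-FLAG library of MMP13 were close, with a log2 fold change of -0.25 (SE 0.12, edgeR adjusted p = 0.52). Leaving out empty vector replicate 2 gave -0.13 and leaving out replicate 1 of that group gave -0.39.

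MMP10, the stromelysin 2 gene (102770503 to 102780628, minus strand), had 23.2 and 27.9 CPM in empty vector libraries against 24.1 and 27.2 CPM under TINCR-HA-FLAG. Both TINCR-HA-FLAG libraries lay between the empty vector libraries, and its log2 fold change of 0.01 (SE 0.14, edgeR adjusted p = 0.99) was negative with DESeq2 and with RLE size factors (-0.01 in both). MMP7, which encodes matrilysin (102520508 to 102530753, minus strand), had 5.95 and 6.78 CPM in empty vector libraries against 6.14 and 5.95 CPM under TINCR-HA-FLAG. These groups overlapped too, with a log2 fold change of -0.08 (SE 0.21, edgeR adjusted p = 0.95). MMP10 and MMP7 are the genes whose AP-1 and TATA matches are printed above.

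MMP1 and MMP10 are 9.3 kb apart and had similar counts, so their ratio is a comparison inside each library. The ratio of MMP1 to MMP10 counts was 0.930 and 0.717 in empty vector libraries against 0.527 and 0.513 under TINCR-HA-FLAG. Both TINCR-HA-FLAG libraries were lower than both empty vector libraries. The ratio of MMP7 to MMP10 was 0.257 and 0.243 against 0.255 and 0.219, which overlapped. The ratio of MMP13 to MMP1 was 6.59 and 8.28 against 9.60 and 9.81, without overlap. These ratios were chosen after the values were seen, and with 2 libraries a group they were given no test.

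MMP3, the stromelysin 1 gene (102835801 to 102843803, minus strand), had 10 and 8 counts with the empty vector and 8 in each TINCR-HA-FLAG library. This is 0.36 to 0.58 CPM, a few times the level of 3 counts, and it was not tested in the main fit. In the fit with no filter its log2 fold change was -0.41 (edgeR adjusted p = 0.84). MMP3 and MMP10 transcripts are similar: 7.12% of the 31-base words and 3.36% of the 50-base words of MMP10 transcripts also occur in MMP3, so a part of the reads of either could be shared. For BIRC2 and BIRC3 the shared part was small, 0.778% of the 31-base words of BIRC2. The noncoding WTAPP1 lies on the opposite strand and overlaps MMP10, MMP1 and MMP3, and it had 15 and 12 counts against 7 and 10. The strand setting of the counting is not given in the sources used here, so reads of WTAPP1 and of these genes may not be separated where they overlap.

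DCUN1D5 (103062076 to 103092215, minus strand), at the far end of the set, encodes a protein that promotes the attachment of NEDD8 to cullins. It had 64.9 and 59.8 CPM in empty vector libraries against 44.5 and 47.2 CPM under TINCR-HA-FLAG. Both TINCR-HA-FLAG libraries were lower, at 73.6% of the empty vector level by the fit (log2 fold change -0.44, SE 0.11, edgeR adjusted p = 0.14). Without a replicate block its edgeR adjusted p lay between 0.061 and 0.42 over the edgeR alternatives, and DESeq2 gave 0.098.

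Gene order was then set against change. From YAP1 onward the log2 fold changes of the 9 tested genes were -0.70, -0.18, -0.45, -0.50, -0.08, 0.01, -0.64, -0.25 and -0.44. Low and near-zero values alternated along the map. The lowest values were at YAP1 and at MMP1, whose lower map coordinates are 679.5 kb apart. The 2 values nearest to 0 belonged to neighbours in the tested set, MMP7 and MMP10. Whether the genes differ from each other in their change was not tested.

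Other genes of the interval had values in the same range. Of 37 annotated genes whose lower map coordinate lies in the surrounding interval, 14 were tested, and 9 of these are the selected genes themselves. Of the 14, 13 had a negative log2 fold change, with a median of -0.44, which mostly repeats the selection. The tested genes outside the set numbered 5, and all 5 were negative (49.3% of all genes), with a median of -0.43. In 4 of them both TINCR-HA-FLAG libraries were lower (17.9% of all genes). Among the 5 tested genes that are not of the set, MMP12, the macrophage elastase gene, had 9.92 and 11.2 CPM in empty vector libraries against 7.49 and 7.48 CPM under TINCR-HA-FLAG (log2 fold change -0.50, SE 0.18, edgeR adjusted p = 0.38). DYNC2H1, the heavy chain gene of the dynein of cilia, had 90.4 and 76.1 against 71.8 and 51.7 CPM (log2 fold change -0.43, SE 0.15, edgeR adjusted p = 0.35). WTAPP1 and TMEM123-DT, both under 1 CPM in each library, had -0.91 (SE 0.59) and -0.11 (SE 0.50). Both overlap genes of the set on the opposite strand, so their reads may not be separated from those of the set. The last of the 5, a noncoding gene with no symbol beside YAP1, had -0.38 (SE 0.71) at 5 to 17 counts. Of the 23 genes not tested, the protein-coding ones beside MMP3 were CFAP300 and MMP20, with at most 3 and 2 counts in a library, and MMP27 and MMP8, with 0 counts in all 4. The other named ones were RNA5SP535, RNU6-952P, MMP20-AS1, BOLA3P1, RNU7-159P and RPL21P96.

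The flanks were measured from CNTN5 on the centromere side to GUCY1A2 on the other. Of 11 tested protein-coding flank genes 9 had a negative log2 fold change (49.3% of all genes) and 7 had both TINCR-HA-FLAG libraries lower (17.9% of all genes). None was called by edgeR or DESeq2 and 5 passed an unadjusted edgeR p of 0.05, which 10.2% of all genes did in either direction. Towards the centromere, CNTN5 had 0.57 (SE 0.36), ARHGAP42 -0.26 (SE 0.17) and CEP126 -0.38 (SE 0.15). Beyond DYNC2H1, PDGFD, a platelet-derived growth factor gene, had -0.42 (SE 0.14) and the inflammatory caspase gene CASP4 -0.36 (SE 0.14). Past CASP5, which had at most 4 counts in a library and was not tested, CASP1 had 22.1 and 21.7 CPM in empty vector libraries against 25.4 and 22.9 CPM under TINCR-HA-FLAG, the opposite direction (log2 fold change 0.14, SE 0.13, edgeR adjusted p = 0.81). CARD16 followed with -0.37 (SE 0.24), MSANTD4 with -0.36 (SE 0.13), KBTBD3 with -0.08 (SE 0.27), AASDHPPT with -0.25 (SE 0.10) and GUCY1A2 with -0.13 (SE 0.60). CARD16 and CASP1 resemble each other in sequence, and their reads may not be fully separated.

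**Figure D2:**
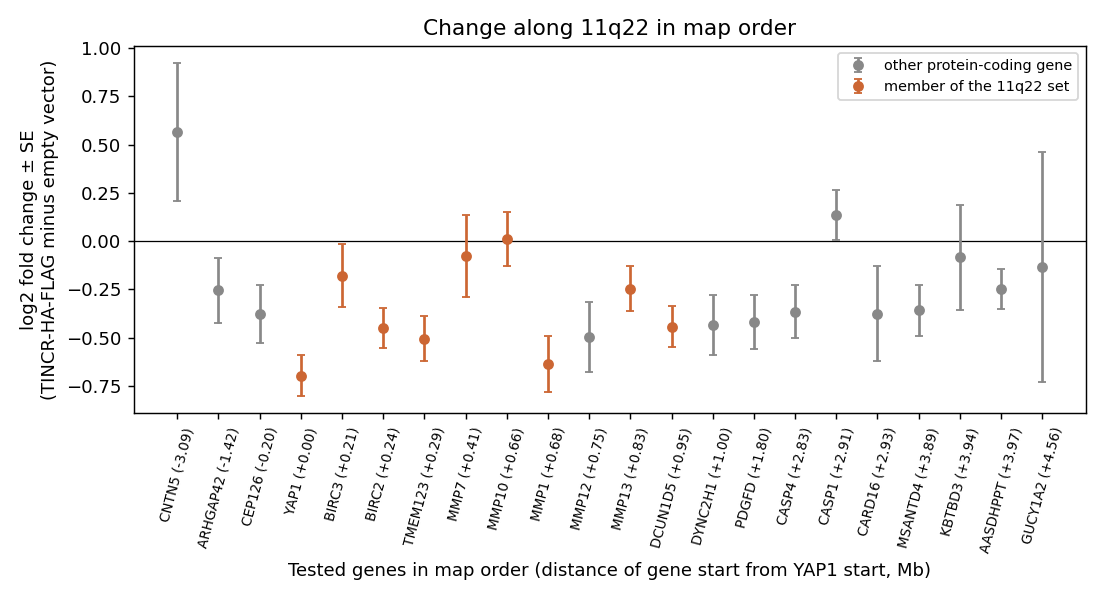
The log2 fold change (TINCR-HA-FLAG minus empty vector) with its standard error for every tested protein-coding gene from CNTN5 to GUCY1A2, in map order. The distance of each gene's lower map coordinate from that of YAP1 is given in Mb. Orange points are the 9 tested genes of the set and grey points the others. YAP1 and MMP1 are lowest, at -0.70 and -0.64, and MMP10, CNTN5 and CASP1 are the points above 0.

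Along the whole of chromosome 11, values were negative over a longer stretch than the set. In 5 Mb bins of expressed genes (mean log2 CPM 2 or more), the bin of 100 to 105 Mb, which holds the set, had a median log2 fold change of -0.40 over 16 genes, 15 of them negative. The 9 tested genes of the set are among these 16. The 3 bins from 105 to 120 Mb, which hold no gene of the set, had medians of -0.25, -0.20 and -0.26. Over these 3 bins 62 of 74 genes were negative (83.8%) and 47 had both TINCR-HA-FLAG libraries lower (63.5%), beside 51.9% and 20.9% of the 11884 genes in all bins. From 0 to 100 Mb of the chromosome 263 of 534 genes were negative with a median of 0.006, and beyond 120 Mb 27 of 54 with a median of 0.003. Of the 90 genes from 100 to 120 Mb, edgeR called 1, YAP1, beside 0.549% of all genes tested in either direction. DESeq2 called YAP1, TMEM123 and BIRC2 of the set in this stretch, and its other calls there were not counted.

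The bins were also read library by library. In the bin of the set, the median of log2 CPM centred on each gene's mean was 0.17 and 0.19 in the empty vector libraries and -0.22 and -0.19 in the TINCR-HA-FLAG libraries. In the bins from 105 to 120 Mb these medians were 0.07 to 0.15 in the empty vector libraries and -0.14 to -0.07 in the TINCR-HA-FLAG libraries. In the bin of 120 to 125 Mb they were 0.03, -0.03, 0.01 and -0.03, with no separation of the groups. Each gene was centred over these same libraries, so the medians restate the group difference by library and are no separate support. Of 414 bins of the genome with at least 10 such genes, 1 had a lower median than the bin of the set, the first 5 Mb of chromosome 5 (-0.49). Ranks 3 to 6 were held by bins of chromosome 2 between 215 and 245 Mb, with medians of -0.35 to -0.32. The bin of the set holds its 9 tested genes, which were selected on these same changes. Its median and rank thus follow in part from that selection. The limits of 100 and 120 Mb were set after the values were seen, neighbouring genes are not independent, and no test was made of the stretch. The cause of the stretch was not tested.

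**Figure D3:**
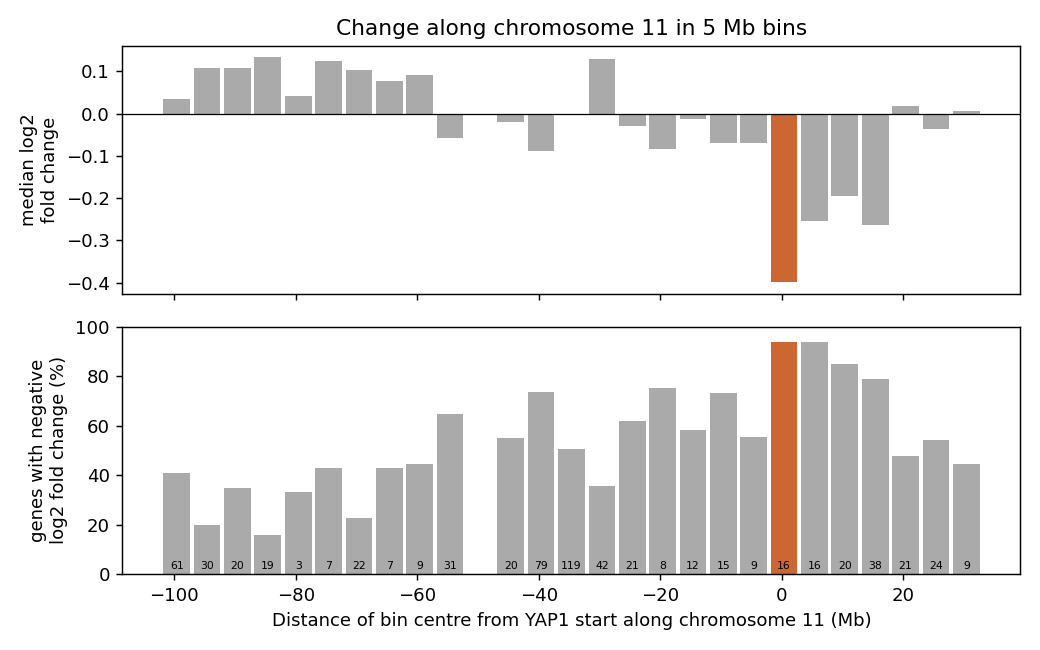
Chromosome 11 in 5 Mb bins, by distance of the bin centre from the YAP1 start in Mb. The upper panel gives the median log2 fold change of expressed genes (mean log2 CPM 2 or more) and the lower panel the percentage of them that is negative, with the number of genes at the foot of each bar. The orange bar holds the set (-0.40, 15 of 16 negative), and the 3 bars to its right are negative as well.

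Partners and targets of YAP1 elsewhere in the genome were read from the same fit. None of the 19 genes of the Hippo kinases, scaffolds and partners list was called by edgeR or DESeq2. An unadjusted edgeR p under 0.05 was found for 3 of them, beside 10.2% of all genes. The median log2 fold change of this list was 0.06. The kinase activator gene MOB1A had 410 ± 25.7 CPM in empty vector libraries against 454 ± 20.9 under TINCR-HA-FLAG, TEAD1 had 135 ± 1.07 and 153 ± 6.51, and the scaffold gene AMOTL2 had 123 ± 9.94 and 148 ± 2.30 (SD, n = 2 per group). Of 21 tested YAP and TEAD targets 2 rose and 1 fell by edgeR, beside 0.453% and 0.0959% of all genes, with a median log2 fold change of 0.18. At an unadjusted edgeR p under 0.05 there were 9 of the 21, where all genes had 10.2%. The log2 fold change was positive for 13 of the 21 and negative for 8 (49.3% of all genes). Both TINCR-HA-FLAG libraries were higher for 9 and lower for 5. Of all genes, 17.9% were lower in this way and 39.6% had no overlap in either direction. DESeq2 called 4, beside 1.01% of all genes, and the 1 more was NT5E, an ecto-nucleotidase gene named after its values were seen (log2 fold change 0.98, DESeq2 adjusted p = 0.029). IGFBP3, an insulin-like growth factor binding protein gene, had 86.4 ± 12.2 against 191 ± 1.43 CPM (SD, n = 2 per group) and rose by 1.15 on the log2 scale (SE 0.12, edgeR adjusted p = 0.0027). TGFB2, which encodes a transforming growth factor, had a log2 fold change of 1.29 and F3, the tissue factor gene, of -0.62 (edgeR adjusted p = 0.0066 and 0.037). MYOF had 578 ± 5.71 and 503 ± 20.2 CPM and DOCK5 158 ± 38.9 and 137 ± 28.5 (SD, n = 2 per group). These targets thus had called values in both directions beside the lower YAP1.

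The other families of the set showed few calls. Over all genes tested, 10.2% had an unadjusted edgeR p under 0.05, edgeR called 0.549% and DESeq2 1.01%. No member of the IAP family and partners list was called by edgeR or DESeq2 (14 tested, 2 with an unadjusted p under 0.05, median -0.02), with BIRC6 at 179 ± 7.94 and 188 ± 28.9 CPM, BIRC5 at 169 ± 12.7 and 143 ± 17.5 and XIAP at 108 ± 3.36 and 111 ± 1.58 (SD, n = 2 per group). None of 13 tested NF-kB targets was called by either tool, 2 had an unadjusted p under 0.05 and the median was 0.10. TNFAIP2, the most abundant of them, had 1208 ± 35.4 and 1435 ± 12.1 CPM, NFKB1 96.7 ± 2.87 and 93.3 ± 5.48 and NFKBIA 86.7 ± 8.64 and 102.4 ± 0.14 (SD, n = 2 per group). In the cullin neddylation list, 17 genes with DCUN1D5 left out, no gene was called by either tool, 4 had an unadjusted p under 0.05 and the median was -0.07. CUL4B had 198 ± 3.78 and 191 ± 1.40 CPM, CUL4A 149 ± 0.06 and 127 ± 9.62 and DCUN1D1, a paralog of DCUN1D5, 104.0 ± 1.48 and 102.2 ± 1.86 (SD, n = 2 per group).

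Metalloproteinase genes on other chromosomes gave a median of 0.15 over 11 tested, with none called by edgeR or DESeq2 and 1 with an unadjusted p under 0.05. Over all genes tested, 10.2% had an unadjusted edgeR p under 0.05 and DESeq2 called 1.01%, in either direction. MMP14, which encodes a membrane-bound collagenase, had 231 ± 27.1 CPM in empty vector libraries against 223 ± 24.8 under TINCR-HA-FLAG, MMP15 67.8 ± 16.2 and 74.97 ± 10.95 and MMP17 16.6 ± 0.87 and 15.9 ± 1.11 (SD, n = 2 per group). None of the 4 tested inhibitor genes was called by either tool, 1 had an unadjusted p under 0.05 and the median was 0.25. TIMP1 had 40.7 ± 7.23 and 47.5 ± 7.17 CPM, TIMP2 15.2 ± 2.64 and 13.3 ± 0.11 and TIMP3 4.37 ± 0.34 and 6.42 ± 0.17 (SD, n = 2 per group). Of the 7 AP-1 subunit genes 1 was called by edgeR, as lower, beside 0.0959% of all genes, and the same number by DESeq2 and at an unadjusted p under 0.05: FOSL1 had 127 ± 7.86 against 72.6 ± 11.6 CPM (SD, n = 2 per group) and fell by 0.80 on the log2 scale (SE 0.13, edgeR adjusted p = 0.025). JUNB had 97.4 ± 15.4 and 99.03 ± 17.7 CPM and FOSL2 69.9 ± 2.92 and 73.0 ± 1.99 (SD, n = 2 per group), and the list median was 0.03. FOSL1 and MMP1 were both lower under TINCR-HA-FLAG, while the groups of MMP7 and MMP10 overlapped, and the relation was not tested.

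The genes most like YAP1 were sought by the Euclidean distance between log2 CPM profiles over the 4 libraries, each centred on its mean, among 8101 protein-coding genes whose mean log2 CPM was 4 or more. Among the 5 nearest were SLCO4A1 (distance 0.076), IRX2 (0.093), ANK1 (0.107) and FGFBP1 (0.132). Within the set MMP1 was nearest to YAP1 (distance 0.164, rank 11), then TMEM123 (0.193, rank 21), BIRC2 (0.280, rank 83) and DCUN1D5 (0.301, rank 105). MMP13 (0.459) had rank 572, BIRC3 (0.614) 2389 and MMP10 (0.717) 4411, and MMP7 lay below the minimum level. With 4 libraries in 2 groups this distance mostly measures the size of the group difference.

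**Figure D4:**
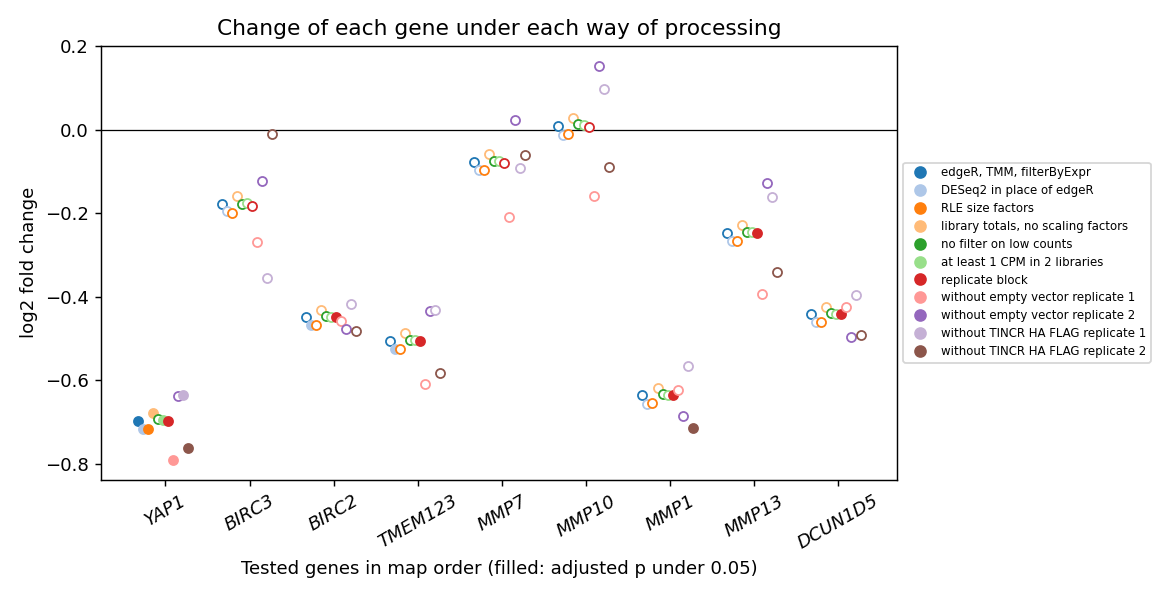
The log2 fold change (TINCR-HA-FLAG minus empty vector) of each of the 9 tested genes under the main processing and the 10 alternatives, 1 colour each, with filled points where the adjusted p was under 0.05. YAP1, BIRC3, BIRC2, TMEM123, MMP1, MMP13 and DCUN1D5 are below 0 in all of them, with BIRC3 reaching -0.01. The points of MMP7 and MMP10 fall on both sides of 0.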

How the data were processed

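The table used here holds raw read counts for Ensembl genes as deposited by the authors, 1 column per library. Per the submitters' processing notes, the tools were STAR 2.7.9a, DESeq2 1.32.0 and bcl2fastq 2.20.0.422 (roles unstated), with build GRCh38. Counter, strand setting and annotation: not given in the sources used here. Per the labels' protocols, the kits were RNeasy Mini for total RNA and NEBNext Ultra for libraries. The table's 12 other library columns belong to none of these 4 samples and were left out. Columns were matched to titles by cell line, construct and replicate number, and the titles set the groups.

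Symbols were found for 60463 of 60649 rows and GENCODE v29 positions for 58381. Counts were filtered with filterByExpr, scaled by TMM and tested over all genes with edgeR 4.0.16 (robust quasi-likelihood test) in R 4.3.3, with Benjamini-Hochberg adjustment and a threshold of 0.05. The common biological coefficient of variation was 0.118. Both edgeR and DESeq2 1.42.0 were tested on simulated counts. Levels per kilobase used the union of annotated exons. Members, lists and the named-gene rule (all members and interval genes, called and most abundant list members, the genes most like YAP1) were chosen with earlier results of these data known. A gene that the rule names is not reported here. Against counting error, chi-square per degree of freedom between replicates was 10.5 and 14.3, so no 2 libraries were counted as 1. Depth precision covers counting error only. Alternatives were DESeq2, RLE or library-total scaling, 2 other filters, a replicate block, a wider interval and leaving out each library.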

Additional observations from a re-analysis of the deposited data

How the results depend on the processing

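The median log2 fold change of the 9 tested genes lay between -0.395 and -0.482 over the 10 alternatives, within the spread between libraries of the main value of -0.44. The interval median of -0.44 kept its sign everywhere. Its range over the libraries left out in turn was -0.41 to -0.49. The last, without TINCR-HA-FLAG replicate 2, moved from the main value by more than the spread between libraries (SD 0.04). The interval median was -0.43 over a wider interval. It was -0.44 over its expressed genes (mean log2 CPM 2 or more), an alternative chosen after seeing the data. MMP10 turned negative with DESeq2 (-0.0112) and RLE size factors (-0.00952) and ranged from -0.159 to 0.154 over the libraries left out, negative when empty vector replicate 1 or replicate 2 of the other group was dropped. MMP7 ranged from -0.208 to 0.025, positive when empty vector replicate 2 was dropped. The cause was not tested. The count of genes called over the whole table was 85 higher and 18 lower in the main fit, 190 with DESeq2 (131 higher, 59 lower), 53 with no filter, where 37168 genes were tested, and 124 to 386 over the libraries left out, with 160 lower calls of the 386. The alternative scalings moved the median of all genes by less than 0.1. Genes of the 8 pathway and family lists outside the set, cell type markers not counted, had 4 calls with edgeR, 5 with DESeq2, 2 with no filter, 31 with the replicate block and 3 to 7 over the libraries left out (7 without TINCR-HA-FLAG replicate 2).

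With the replicate number as a block, 2633 genes were called (1317 higher, 1316 lower), and 6 of the 9 genes: YAP1, BIRC2, TMEM123, MMP1, MMP13 and DCUN1D5, at log2 fold changes of -0.70, -0.45, -0.50, -0.63, -0.25 and -0.44. Across genes the difference between replicates 1 and 2 correlated between the groups (r = 0.37), but no label says what a number shares, so the block is no main result. A fit with a library left out assumes that the lone library varies like the other group. Depth limits MMP3, which had 8 to 10 counts: its log2 fold change lay between -0.283 and -0.553 in the 4 alternatives that fitted it, with adjusted p from 0.835 to 0.97.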
